A study of Arabidopsis thaliana with 12 samples.

Results

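Loss of SIZ1 was compared with wild type over all transcripts that the Affymetrix ATH1 array measures in Arabidopsis thaliana seedlings. The samples were chosen by the name and number in their titles, which gave 3 SIZ1 and 3 COL arrays, 6 of the 12 in the series, and all 22746 probe sets other than the array's controls were tested, named or not. A probe set is a group of short probes that reads 1 transcript. COL is the wild type of the accession Columbia, and SIZ1 is a knock-out line made by inserting T-DNA, a stretch of bacterial origin that interrupts a gene. The other 6 arrays are of AB and SAB, which the labels also describe as T-DNA knock-outs in Columbia without saying which genes are disrupted. All seedlings were untreated and grew on Murashige and Skoog medium, 3 arrays to a genotype. The labels name no allele or number of independent lines. They give an age for AB 1 and AB 2 and none for the SIZ1 or COL samples. The labels do not say whether the 3 samples of each genotype were grown separately, so p-values cover only the variation among these samples, part of which may be technical. The series set out to learn which transcripts respond to the loss of enzymes that handle ubiquitin-like modifiers.

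SUMO is a small protein that cells attach to other proteins, many of them in the nucleus, to change what those proteins bind or how long they last. Attachment runs through an activating enzyme, a conjugating enzyme and, for many targets, an E3 ligase, and SIZ1 is the main such ligase known in Arabidopsis. SUMO proteases trim the precursor and take the modifier off again. Plants without SIZ1 are known for small rosettes, high salicylic acid, active defence genes, early flowering and altered responses to phosphate, cold and heat.

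The SIZ1 transcript itself was read by a pair of probe sets that moved in opposite directions. Probe set 247630_at stood at 5.60, 5.36 and 5.53 on the log2 scale in the 3 COL arrays and at 2.50, 2.51 and 2.19 in the 3 SIZ1 arrays. The groups were far apart, and the SIZ1 values lay at the level of the dimmest 25% of probe sets, which ends at 2.51. The fall of 3.10 (SE 0.11, limma adjusted p = 3.99e-06) was the largest fall among the called probe sets. Probe set 247629_at stood at 3.07, 2.91 and 3.07 in COL and at 4.22, 4.12 and 4.63 in SIZ1, a rise of 1.31 (SE 0.12, limma adjusted p = 0.00104). The SIZ1 arrays were the higher ones here, without overlap. The positions of the insertion and of these probes were not used here, so neither probe set is known to lie outside the interrupted stretch. Of the 9 measured genes that stand within 15 protein-coding genes of SIZ1 on either side on chromosome 5, 0 were called, with changes from -0.07 to 0.19. Since only 1.68% of all named loci were higher and 1.09% lower, 0 calls among 9 genes says little.

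**Figure D1:**
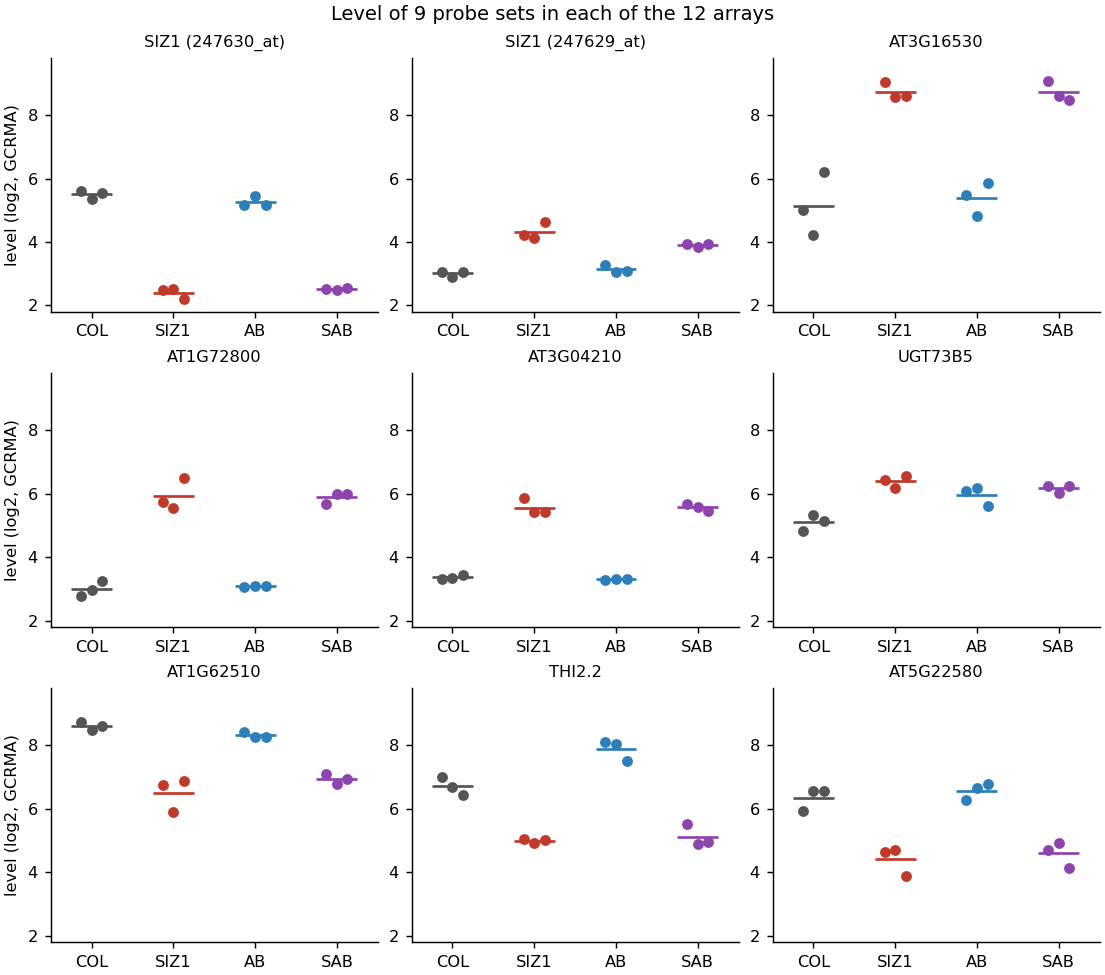
Log2 level (vertical axis) of 9 probe sets in each of the 12 arrays, by genotype (horizontal axis). Points are single arrays in the order of replicates 1 to 3, and bars are means of 3. For 8 of the 9 no SIZ1 or SAB array overlaps a COL or AB array, and UGT73B5 is also high in AB.

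Transcripts changed in both directions in SIZ1. Of the 22746 probe sets, 438 were higher, which is 1.93%, and 294 were lower, 1.29% (limma at an adjusted p under 0.05). Together these 732 made up 3.22% of the probe sets. With the replicate number as a block, 607 were higher and 560 lower. Without COL 3 the counts were 341 and 345, and with median centring of all arrays 429 and 391. The size of the excess of rises thus varied with the arrays and settings used. Changes of at least 2-fold were found in 89 probe sets that rose and 32 that fell, and of at least 4-fold in 16 and 3. The median change of a rise was 0.59 and of a fall -0.51, while the median over all probe sets was -0.02. For all 732 calls the 3 SIZ1 values lay wholly above or wholly below the 3 COL values. The 3 pairs of like-numbered arrays therefore had to differ in the same direction. Their median differences were 0.66, 0.57 and 0.53 for the rises and -0.62, -0.51 and -0.39 for the falls. Of the rises 225 name exactly 1 gene, 14 several and 199 none, and of the falls 145, 5 and 144. Among all probe sets that name 1 gene, 1.67% were higher and 1.07% lower.

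The calls depended on how the spread was estimated and on single arrays. With only the 6 SIZ1 and COL arrays in the fit, 91 probe sets were higher and 40 lower, so most calls rest on the spread shared with AB and SAB. Of the 51 named probe sets called in SIZ1 minus COL, 17 kept their call in that fit: 247630_at of SIZ1, AT1G72800, AT1G27030, AT3G04210, AT2G18210, AT3G44970, AT2G37870, AT1G10990, AT3G22240, XTH20, AT5G01740, AT3G29180, AT5G52070, AT1G14120, AT1G70880, THI2.2 and the unnamed 256766_at. With quantile normalization the calls of AT2G22880, AT5G03350, EXPA9 and UGT73B1 ended narrowly (adjusted p of 0.0561, 0.0570, 0.0544 and 0.0579). Leaving out SIZ1 2 left 204 and 113, leaving out COL 1 left 218 and 122, and leaving out SIZ1 1 left 274 and 127.

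**Figure D2:**
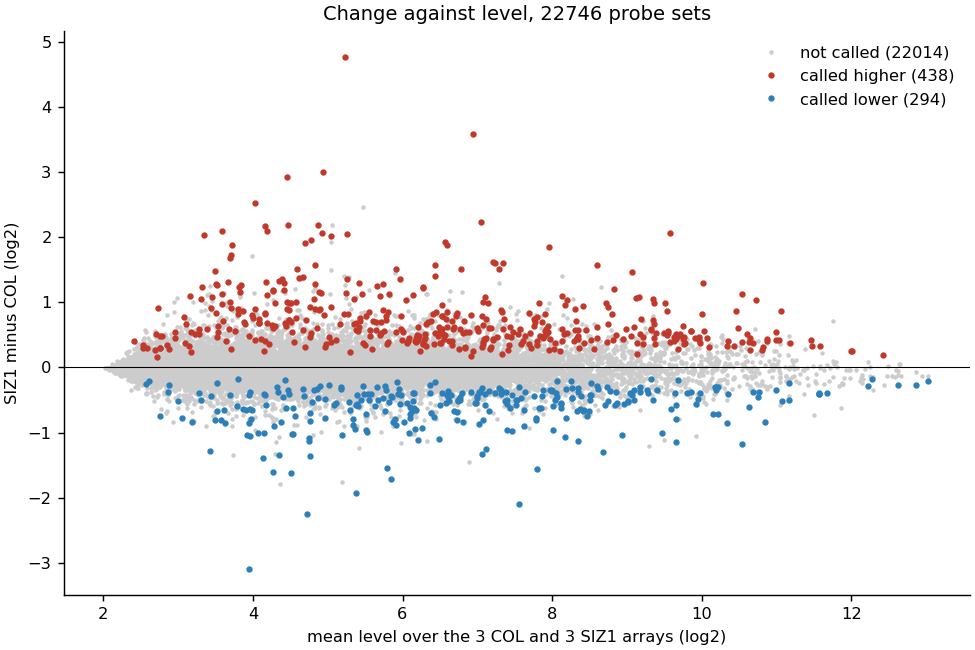
SIZ1 minus COL (vertical axis, log2) against the mean level over the 6 arrays (horizontal axis, log2) for 22746 probe sets. The 438 rises are red and the 294 falls blue. Few of the dim probe sets at the left were called, and 16 rises but only 3 falls passed 4-fold.

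Nearly all calls came from probe sets above the floor of the array. In the dimmest 25% 2 of 5687 probe sets were called higher and 0 lower. In the brightest 25%, 283 were higher, 4.98%, and 206 lower, 3.62%. The 3 SIZ1 values lay below the 3 COL values in 50.3% of the dimmest 25%, where the median change was only -0.01. Over all probe sets the 3 SIZ1 values lay above COL in 8.1% and below in 26.0%. Non-overlap at the floor is therefore common in these arrays and was not read as a change.

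The signal of the array's own controls differed between the genotypes. Poly-A controls, which are spiked into the RNA, were at 4.08 to 4.47 in COL and 3.70 to 4.02 in SIZ1. Hybridization controls overlapped but were lowest in SIZ1 3, at 7.17. The difference between 3' and 5' actin probes, a measure of intact RNA, overlapped, at 2.44 to 2.59 in COL and 2.55 to 2.65 in SIZ1. The RNA per array was 681 to 812 ng in COL and 652 to 802 ng in SIZ1. The part of these in the calls was not tested. Markers of other organs were measured under a name for 4 root genes, 3 guard cell genes and 1 each of seed, trichome and flower, and 0 of these 10 were called. Among all named loci 1.68% were higher and 1.09% lower. The median level of the root genes was 3.82 to 4.33 in COL and 4.18 to 4.36 in SIZ1, which overlap. The root marker PYK10, which encodes a beta-glucosidase of root endoplasmic reticulum bodies, stood at 11.65 in COL and 11.69 in SIZ1. OLEO3, a seed oleosin, stood near the floor in both, at 2.31 and 2.29, and the photosynthesis gene RCA stood high in both, at 12.19 and 12.17.

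The largest rise among named genes was in AT3G16530, which encodes a legume-type lectin, a sugar-binding protein. It stood at 5.0, 4.23 and 6.22 in COL and at 9.03, 8.57 and 8.61 in SIZ1. The COL arrays spread widely and none reached the SIZ1 arrays. It was 12.0-fold higher in SIZ1 (log2 change 3.59, SE 0.46, limma adjusted p = 0.00509), and SAB exceeded AB by 3.33. AT5G03350, another legume-type lectin, lay near the floor in COL, at 2.32, 2.26 and 2.39, and at 5.33, 4.34 and 3.40 in SIZ1. The SIZ1 arrays differed from each other by nearly as much as their mean differed from COL (2.03, SE 0.45, limma adjusted p = 0.0466). Its call ended when any of AB 1, AB 2, AB 3, COL 1, COL 2, COL 3, SAB 2, SIZ1 1 or SIZ1 2 was left out, with adjusted p up to 0.130.

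AT3G04210 belongs to the TIR-NBS genes, relatives of the intracellular immune receptors of plants. Its values were 3.32, 3.34 and 3.43 in COL and 5.85, 5.41 and 5.42 in SIZ1, one of the tightest separations among the rises (2.19, SE 0.11, limma adjusted p = 3.13e-05). AT2G19970, a gene of the PR-1-like family of secreted proteins, stood at 3.99, 3.28 and 4.38 in COL and at 6.05, 5.71 and 6.10 in SIZ1 (2.07, SE 0.25, limma adjusted p = 0.00402). AT1G26380, an FAD-dependent oxidoreductase of the berberine bridge type, stood at 4.10, 3.91 and 3.23 in COL and at 5.34, 5.70 and 5.91 in SIZ1 (1.91, SE 0.30, limma adjusted p = 0.0111). No SIZ1 array overlapped COL for these genes, which was a condition for naming them. SAB exceeded AB for them by 2.27, 2.17 and 1.75 (limma adjusted p = 2.65e-05, 0.00277 and 0.0127). AT2G22880, which encodes a protein with a VQ motif, a short stretch by which such proteins bind WRKY factors, rose by 2.17 (SE 0.49, limma adjusted p = 0.0470) from 2.36, 3.30 and 3.57 to 4.88, 5.53 and 5.35. That call was fragile. It ended without any 1 of the 12 arrays other than AB 1 and AB 3, with adjusted p up to 0.151. AT2G22880 stood at 2.71, 4.40 and 4.58 in AB, and SAB exceeded AB by 1.40 without a call.

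Several of the most uniform rises were in genes whose function is not given here. AT1G72800 stood at 2.78, 2.97 and 3.25 in COL and at 5.74, 5.53 and 6.50 in SIZ1, which is 7.61-fold higher (2.93, SE 0.22, limma adjusted p = 0.000433). AT1G27030 rose by 2.23 (SE 0.18) from 6.05, 5.87 and 5.88 to 8.26, 8.19 and 8.04. AT2G18210 rose by 2.10 (SE 0.12), with all 3 COL arrays between 3.09 and 3.17 and all 3 SIZ1 arrays between 5.14 and 5.32. These groups had small spread within each genotype. AT3G22240 rose by 1.85 (SE 0.09, limma adjusted p = 3.13e-05) from between 6.96 and 7.10 in COL to between 8.72 and 9.06 in SIZ1. AT1G10990 rose by 1.88 (limma adjusted p = 0.0141), a call that ended without SIZ1 2 (0.0553), and AT2G25510 by 1.63 (0.0231), a call that ended without 1 of COL 2, COL 3, SIZ1 1 and SIZ1 2, at adjusted p up to 0.0789. AT3G44970, a cytochrome P450 gene, rose by 2.01 (SE 0.21, limma adjusted p = 0.00161) from 4.09, 3.77 and 4.23 to 6.33, 5.88 and 5.92. For AT3G44970 AB averaged 5.30, between COL and SIZ1, and SAB minus AB was 0.75 without a call. For AT2G25510 AB averaged 7.72, near the 8.02 in SIZ1, and SAB minus AB was 0.89 without a call. AT2G37870, of the lipid-transfer type of small secreted proteins, rose by 1.96 (SE 0.24, limma adjusted p = 0.00440). Among probe sets with no gene name here, 256766_at went from 2.71, 2.79 and 3.03 in COL to 8.26, 7.34 and 7.23 in SIZ1. That was the largest rise among the calls (4.77), and 252265_at rose by 3.0. Besides AT3G44970 and AT2G25510, SAB minus AB was uncalled for AT1G10990 (1.18). The other probe sets of this paragraph were called higher in SAB minus AB.

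Among the genes called without overlap and not below the median level in both genotypes, the largest falls after SIZ1 were in AT1G62510, AT5G22580 and THI2.2. AT1G62510, of the lipid-transfer type, stood at 8.72, 8.47 and 8.62 in COL and at 6.74, 5.89 and 6.88 in SIZ1, 4.29-fold lower in SIZ1 (-2.10, SE 0.22, limma adjusted p = 0.00194). AT5G22580, a small protein of the dimeric barrel type, stood at 5.93, 6.56 and 6.55 in COL and at 4.65, 4.71 and 3.88 in SIZ1 (-1.93, SE 0.29, limma adjusted p = 0.00854). THI2.2 encodes a thionin, a small cysteine-rich antimicrobial peptide. It stood at 7.01, 6.67 and 6.43 in COL and at 5.05, 4.92 and 5.01 in SIZ1 (-1.71, SE 0.21, limma adjusted p = 0.00412). The lack of overlap between SIZ1 and COL was a condition for naming these 3 genes. THI2.2 was at 8.09, 8.05 and 7.52 in AB, above COL, and at 5.51, 4.90 and 4.96 in SAB.

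Other falls were smaller. AT1G70880 and AT1G23130, of the Bet v 1 family of small ligand-binding proteins, fell by 1.62 and 1.12 (limma adjusted p = 0.00124 and 0.0163), and the call of the latter ended without COL 1 or SIZ1 2 (up to 0.0652). ZW9, a TRAF-like gene, fell by 1.55 (SE 0.20, limma adjusted p = 0.00518), with SIZ1 3 lowest at 6.49 against 7.36 and 7.22. AT1G14120, a 2-oxoglutarate-dependent oxygenase, fell by 1.36 (SE 0.23), and its call ended without COL 1 or SIZ1 2 (up to 0.0650). AT1G44790, of the ChaC type of glutathione-degrading enzymes, fell by 1.09 (SE 0.19), a call that ended without SIZ1 1 or SIZ1 2 (up to 0.0611). TPS-CIN, the terpene synthase that makes cineole, fell by 1.03 (SE 0.21, limma adjusted p = 0.0333), and that call ended without AB 2, COL 1, COL 3, SAB 1, SAB 2, SAB 3, SIZ1 1 or SIZ1 2 (up to 0.110). AT5G52070 fell by 1.29 and AT3G29180 by 1.11, both with a call that held without any 1 array. AT5G35970 fell by 1.25, with a call that ended without SIZ1 2 (0.0692). AT5G01740 fell by 1.02 (limma adjusted p = 0.0418), a call that ended without AB 2, SAB 2 or any 1 of the 6 COL and SIZ1 arrays (up to 0.137). It averaged 3.87 in AB, as low as the 4.02 in SIZ1, and SAB minus AB was 0.17 without a call. Of the unnamed probe sets, 250199_at fell by 2.25 and 262412_at by 1.60. For 250199_at AB averaged 4.35, between COL and SIZ1, and SAB minus AB was -0.65 without a call. SAB minus AB was also uncalled for AT1G23130, ZW9 and TPS-CIN (-0.47, -0.62 and -0.85). The other probe sets of this paragraph were called lower in SAB minus AB.

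Genes for proteins of the cytosolic ribosome, the machine that translates nuclear-encoded messages, were higher as a group in SIZ1. A list of 226 such loci, compiled after the values were seen, had 130 members measured under a name, and 39 of them passed as higher and 0 as lower by limma. That is 30.0% higher, against 1.68% of all 13355 named loci and 4.98% of the brightest 25% of the array, and 113 of the 130 lay above the median level. The median change was 0.38, against -0.02 over all named loci, and 116 of the 130 changes were above 0, against 4507 of 13355. The small subunit had 19 of 47 members higher with a median of 0.41, and the large subunit had 20 of 83 with a median of 0.36. The uncalled members ran from -0.24 to 0.72.

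AT1G23410, a fusion of ubiquitin with a ribosomal protein of the small subunit, had the largest change of the list. It stood at 4.21, 4.5 and 4.16 in COL and at 5.57, 5.33 and 5.11 in SIZ1 (1.05, SE 0.14, limma adjusted p = 0.00568). AT5G52650, of the small subunit, stood at 8.87, 9.09 and 9.13 in COL and at 9.82, 9.69 and 9.58 in SIZ1 (0.66, SE 0.09, limma adjusted p = 0.00565). AT5G23900, of the large subunit, stood at 8.62, 8.93 and 8.80 in COL and at 9.35, 9.40 and 9.48 in SIZ1 (0.62, SE 0.08, limma adjusted p = 0.00509). These 3 rises were at most 2.07-fold and, like all the calls, free of overlap. They held when any 1 array was left out, and none of them was called with only the 6 arrays in the fit (adjusted p of 0.0797, 0.0797 and 0.0758). AT2G19730 and AT2G19740, which stand next to each other on chromosome 2 and encode proteins of the large subunit, rose by 0.61 and 0.63. The call of AT2G19730 ended without COL 1 or SIZ1 2 (up to 0.0548). Ribosomal proteins come in families of near-identical copies, so a probe set that names 1 copy may also read its sisters.

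The size of the ribosomal difference varied between arrays. The median level of the 130 genes was 8.40, 8.74 and 8.67 in COL and 9.05, 9.03 and 8.78 in SIZ1. The genotypes did not overlap, but SIZ1 3 exceeded COL 2 by little. The median differences of the 3 pairs were 0.69, 0.30 and 0.19. In the other 6 arrays the median level was 8.58, 8.52 and 8.72 in AB and 8.96, 8.99 and 8.93 in SAB. In SAB minus AB, 43 of the 130 were higher and 0 lower, with a median of 0.36 and pair medians of 0.42, 0.43 and 0.20. Of all 13355 named loci, 263 were higher and 259 lower in SAB minus AB. The count in SIZ1 fell to 18 without COL 1, 14 without SIZ1 1 and 12 without SIZ1 2, and was 3 with only the 6 arrays in the fit. The number lower was 0 under each of these settings. The poly-A controls differed between the same groups, at 4.08 to 4.47 in COL against 3.70 to 4.02 in SIZ1, and their part was not tested. More RNA per cell and more cells that express these genes cannot be told apart in whole seedlings.

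**Figure D3:**
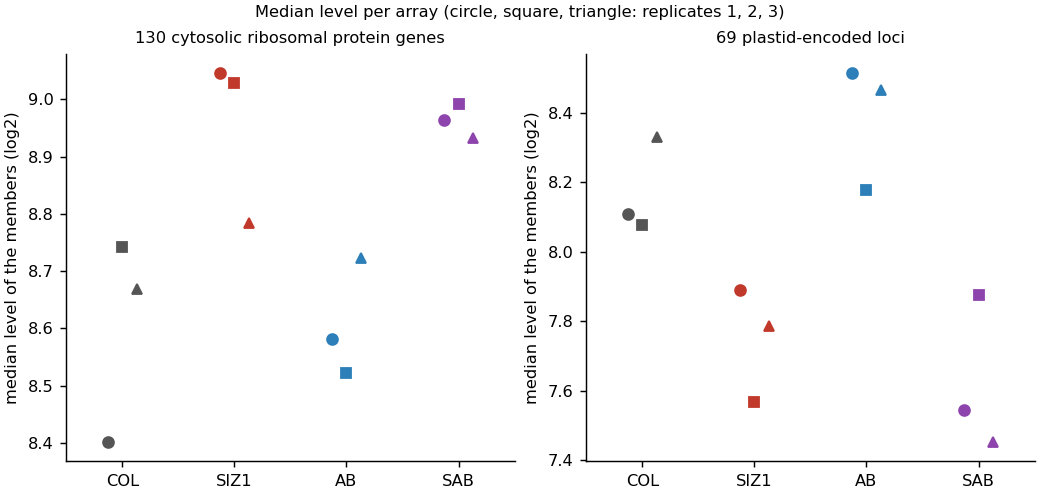
Median log2 level (vertical axis) of 130 cytosolic ribosomal protein genes (left) and 69 plastid-encoded loci (right) in each of the 12 arrays, by genotype. SIZ1 and SAB lie above COL and AB on the left and below them on the right, and COL 1 and SIZ1 3 are the arrays that lie farthest from the others of their genotype on the left.

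Plastids, the compartments of photosynthesis, have ribosomes of their own. Of 33 nuclear genes for plastid ribosomal proteins, 9 were measured under a name, and 0 were called, with changes from -0.18 to 0.16 and a median of -0.04. With the replicate block AT2G43030 among them was lower (-0.18, limma adjusted p = 0.0407), and without SIZ1 1 there was 1 lower. The difference from the cytosolic list was not tested. Among the 69 measured loci of the plastid genome, which encodes photosystem, cytochrome, NADH dehydrogenase and gene expression proteins, 7 were lower and 0 higher. That is 10.1%, against 1.09% of all named loci and 3.62% of the brightest 25% of the array. Of the 69 loci, 61 lay above the median level. The median level of the 69 was 8.11, 8.08 and 8.33 in COL and 7.89, 7.57 and 7.79 in SIZ1, without overlap. The pair medians were -0.13, -0.32 and -0.47, and in SAB minus AB 23 were lower and 0 higher. Of all 13355 named loci, 259 were lower and 263 higher in SAB minus AB. The subunit gene ndhK stood at 6.57, 6.57 and 6.62 in COL and at 5.86, 5.14 and 5.76 in SIZ1 (-1.0, SE 0.21, limma adjusted p = 0.0333). The assembly factor gene ycf4 stood at 5.21, 5.25 and 5.59 in COL and at 4.69, 4.67 and 4.35 in SIZ1 (-0.78, SE 0.13, limma adjusted p = 0.0141). Of the 7 calls that of ycf4 alone held without any 1 array. The call of ndhK ended without SAB 1, SIZ1 2 or any COL array (up to 0.0961), and those of psbB, ccsA, ndhJ, psbJ and psbL each without at least 2 of the arrays. The count was 2 without COL 1, 3 without COL 2, 4 without COL 3 or SAB 1, 2 without SIZ1 2 and 0 with only the 6 arrays. It was 11 with an intensity trend, 12 with median centring and 13 among the 61 loci above the median level. Plastid transcripts mostly lack the poly-A tail by which many labelling methods prime, and the way of priming was not given in the sources used here.

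In the nucleus, 5 light-harvesting and photosystem genes were measured under a name, all above the median level. Of these, 2 were lower, against 1.09% of all named loci and 3.62% of the brightest 25% of the array. The count of lower members was 0 with only the 6 arrays and without COL 1, COL 2, SIZ1 1 or SIZ1 2. In SAB minus AB 0 of the 5 were called, with a median of -0.11, beside 259 lower of all 13355 named loci. LHCB4.2, a minor antenna protein of photosystem II, stood at 11.43, 11.35 and 10.99 in COL and at 10.33, 10.45 and 10.48 in SIZ1 (-0.84, SE 0.15, limma adjusted p = 0.0169). Its call ended without 1 of COL 1, COL 2, SIZ1 1 and SIZ1 2, at adjusted p up to 0.0631. LHCB4.1 differed by -0.18, and its call ended with quantile normalization (0.312), with a filter on dim probe sets, with an intensity trend and without COL 1, COL 2 or any SIZ1 array (up to 0.0978). GI, a clock gene, stood at 6.88, 6.69 and 6.34 in COL and at 5.65, 5.63 and 5.77 in SIZ1 (-0.95, SE 0.17, limma adjusted p = 0.0176). That call ended without 1 of these same 4 arrays, at adjusted p up to 0.0693. The reference gene GAPC2, a cytosolic glycolytic enzyme often used to scale expression, stood at 10.6 to 10.8 in COL and 11.2 to 11.3 in SIZ1, a rise of 0.54 (limma adjusted p = 0.00142). The 3 further reference genes measured, AT2G28390, AT4G34270 and PEX4, had changes of -0.09 to 0.04 without a call.

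**Figure D4:**
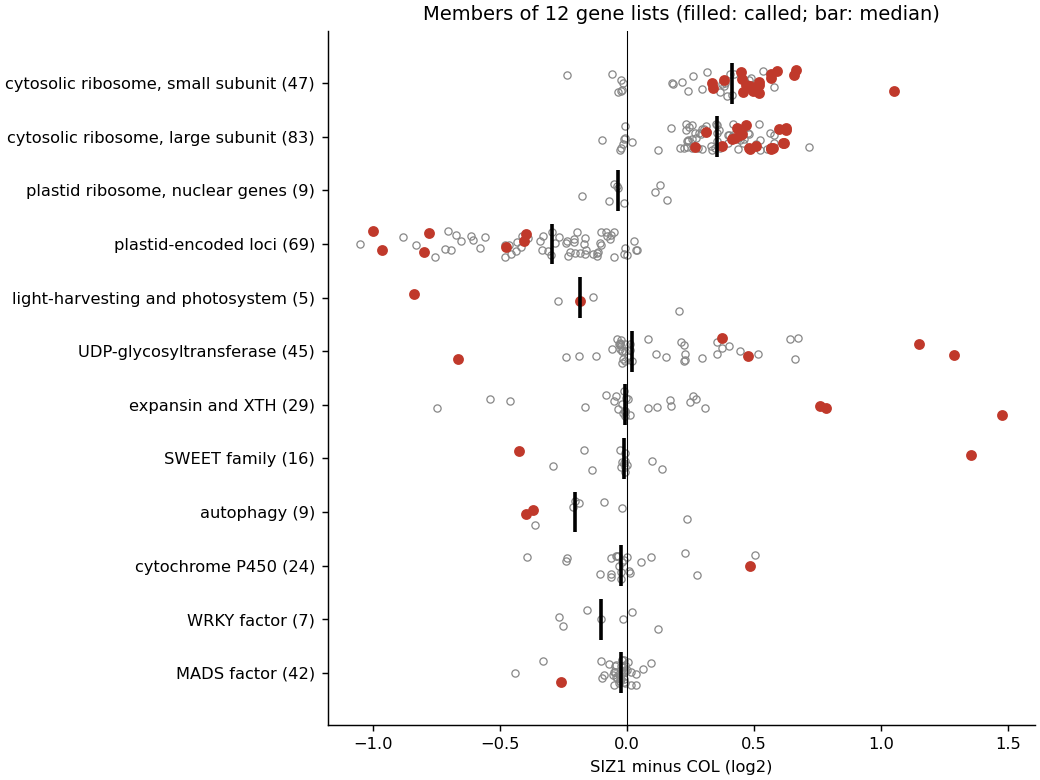
SIZ1 minus COL (horizontal axis, log2) of the members of 12 gene lists, with the number of measured members in brackets. Filled points were called, open points were not, and black bars are medians. The ribosomal lists lie to the right of 0 and the plastid-encoded loci to the left, while most other lists have medians near 0 with single members far out.

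Enzymes that attach sugars to small molecules were the next largest measured family. Of 45 UDP-glycosyltransferase genes, 4 were higher and 1 lower, with a median of 0.02, where 1.68% of all named loci were higher and 1.09% lower. With only the 6 arrays 0 of the 45 were called. The neighbours UGT73B5 and UGT73B4, which stand side by side on chromosome 2, both rose. UGT73B5 stood at 4.82, 5.33 and 5.13 in COL and at 6.42, 6.16 and 6.57 in SIZ1 (1.29, SE 0.18, limma adjusted p = 0.00666). UGT73B4 stood at 4.58, 4.90 and 4.54 in COL and at 5.78, 5.67 and 6.01 in SIZ1 (1.15, SE 0.13, limma adjusted p = 0.00303). In AB the pair stood at 5.96 and 5.42 on average, and in SAB at 6.18 and 5.57, so SAB exceeded AB by only 0.22 and 0.15, without a call. UGT73B1 of the same subfamily rose by 0.48 (limma adjusted p = 0.0364), a call that ended without AB 2, SAB 2, SAB 3, SIZ1 1, SIZ1 3 or any COL array (up to 0.104). UGT85A2 rose by 0.37 (limma adjusted p = 0.0285), which ended without SIZ1 1, SIZ1 2 or any COL array (up to 0.0929). SAB minus AB was 0.07 for UGT73B1 and -0.02 for UGT85A2, both without a call. UGT72E1, of a subfamily that glucosylates lignin precursors, fell by 0.66 (SE 0.12, limma adjusted p = 0.0200), which ended without COL 1, SIZ1 1 or SIZ1 2 (up to 0.0701). It was also lower in SAB minus AB (-0.74, limma adjusted p = 0.0110).

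Of 29 genes for expansins and xyloglucan endotransglucosylases, proteins that loosen or rebuild the cell wall, 3 were higher and 0 lower, with a median of -0.01, beside 1.68% higher among all named loci. The count was 1 with only the 6 arrays and also without COL 1, SIZ1 1 or SIZ1 2. XTH20 stood near the floor in COL, at 2.64, 2.88 and 2.75, and at 4.47, 4.23 and 3.99 in SIZ1 (1.48, SE 0.18, limma adjusted p = 0.00358). It held without any 1 array and with only the 6 arrays. EXPA4 rose by 0.78 (SE 0.14), a call that ended without COL 1, SIZ1 1 or SIZ1 2 (up to 0.0659). EXPA9 rose by 0.76 (SE 0.16), which ended without AB 1, AB 3, SAB 1, SAB 3, SIZ1 1, SIZ1 2 or any COL array (up to 0.109). Of 16 members of the SWEET family of sugar carriers, SWEET2, found at the vacuole, was higher and SWEET11, which exports sucrose toward the phloem, lower, beside 1.68% and 1.09% of all named loci. With only the 6 arrays 0 were called. SWEET2 stood at 5.36, 5.16 and 5.33 in COL and at 6.27, 6.56 and 7.09 in SIZ1 (1.35, SE 0.22, limma adjusted p = 0.0137). SWEET11 changed by -0.43 (SE 0.08), a call that ended without COL 1, COL 3 or SIZ1 2 (up to 0.0706), and it stood at 8.20 to 8.25 in AB, level with SIZ1.

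Autophagy is the route by which cells digest their own contents, and ATG8 is the small protein that marks its membranes. Of 9 autophagy genes 2 were lower and 0 higher, with a median of -0.20, beside 1.09% lower among all named loci. All 9 lay above the median level, and 3.62% of the brightest 25% of the array were lower. With only the 6 arrays 0 of the 9 were lower. In SAB minus AB 0 of the 9 were called, with a median of -0.16, beside 259 lower of all 13355 named loci. APG8H stood at 9.08, 9.04 and 9.0 in COL and at 8.58, 8.67 and 8.75 in SIZ1 (-0.37, SE 0.05, limma adjusted p = 0.00509). ATG8F fell by 0.40 (SE 0.08), which ended without 1 of COL 1, COL 3, SIZ1 1 and SIZ1 2, at adjusted p up to 0.0956. Single members of other families moved, beside 1.68% higher and 1.09% lower among all named loci. The calmodulin-like gene CML42 rose by 0.89 (limma adjusted p = 0.0405), 1 of 9 in its family. Its call ended without AB 2, COL 1, COL 2 or any SAB or SIZ1 array (up to 0.125). CYP71B6, 1 of 24 genes that the tables name as cytochrome P450, rose by 0.48. AT3G44970, known there by its locus code alone, is not among the 24. The call of CYP71B6 ended without COL 2, COL 3 or SIZ1 2 (up to 0.0823). AGL65, 1 of 42 MADS factor genes, changed by -0.26 close to the floor, which ended without any 1 array other than COL 1 (up to 0.117). With the replicate block AGL16 (-0.44) was lower as well, so that 2 of the 42 were, beside 269 of all 13355 named loci. The pattern for ubiquitin ligases of the U-box and RING types also took in unrelated names, and its called genes THIC, a thiamine synthesis enzyme (-0.66), and AT5G06700 (-0.45) are no ligases. The call of the latter ended without COL 2, COL 3 or SIZ1 1 (up to 0.0658).

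Many pathways known from SIZ1 could hardly be read by name. With 1.68% of all named loci higher and 1.09% lower, 0 calls in such short lists says little. Of 30 salicylic acid defence genes 4 were measured under a name, SAG101, WRKY53, GRX480 and AT3G48080, and 0 were called, with changes from -0.03 to 0.21. Of 7 WRKY factor genes 0 were called. Of 18 jasmonate genes 5 were measured, and THI2.2 was the call among them. PDF1.2, a plant defensin, stood at 5.30 in SIZ1 1 and at 3.38 and 3.26 in the others, against 3.06 to 3.55 in COL, and PDF1.2b was high in the same array, at 4.77. Of 13 cold genes 3 were measured, and COR47, COR15A and COR15B differed by -0.38, -0.17 and -0.66 without a call. With the replicate block COR47 and COR15B were lower (limma adjusted p = 0.0347 and 0.0262), and COR47 was also lower in SAB minus AB (-0.39, limma adjusted p = 0.0458). Of 11 auxin genes 3 and of 14 flavonoid genes 4 were measured, with 0 calls. The lists for phosphate starvation, abscisic acid, nitrate, flowering time and senescence had 0 members measured under a name. Of the 19 genes of the SUMO pathway 5 were measured, and SIZ1 was the call. The others were the protease genes AT1G09730, AT4G33620 and ULP1B, and SAE1A, which encodes a subunit of the activating enzyme, with changes from -0.48 to 0.19.

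Of 5845 pairs of adjacent named genes with both members measured, 6 had both members higher, 0 both lower and 1 opposite calls, and 335 had 1 member called. Among all named loci 1.68% were higher and 1.09% lower, and whether such pairs are more common than that implies was not tested. The leucine-rich repeat genes AT1G33590 and AT1G33600 rose by 1.0 and 1.52 (limma adjusted p = 0.000591 and 0.00199). AT1G72800 and AT1G72810 rose by 2.93 and 0.80, with a call of AT1G72810 that ended without COL 1, SIZ1 1 or SIZ1 2 (up to 0.0578). The remaining pairs were UGT73B5 with UGT73B4, AT2G19730 with AT2G19740, AT4G33540 with AT4G33550, and AT4G38540 with AT4G38550. Adjacent genes of 1 family can share probes, and this was not tested.

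The differences were then looked up in arrays that did not enter them. SAB had low SIZ1 signal on 247630_at, at 2.51, 2.49 and 2.55, where AB stood at 5.16, 5.45 and 5.18, so SAB minus AB compares low with full SIZ1 signal in a separate set of 6 arrays. The estimate of spread is shared between both comparisons, while the differences are not. The array measures differed between these groups too. The RNA per array was 678 to 790 ng in AB and 850 to 894 ng in SAB, the difference between 3' and 5' actin probes 2.51 to 2.64 in AB and 2.68 to 2.76 in SAB, and the poly-A controls 4.16 to 4.69 and 3.92 to 4.25. RNA amount and the actin difference did not overlap, and their part in the differences was not tested. In SAB minus AB 1007 probe sets were called, 4.43%, with 2.35% higher and 2.08% lower. Of the 438 rises, 430 were above 0 there, 98.2%, against 56.6% of all probe sets, and of the 294 falls, 268 were below 0, 91.2%, against 43.4%. The same direction was called for 255 rises and 130 falls, 385 in all, which is 52.6% of the SIZ1 minus COL calls and 38.2% of the SAB minus AB calls, and the opposite direction for 0. The median change was 0.50 in SAB minus AB for the rises and -0.35 for the falls, against 0.59 and -0.51 in SIZ1 minus COL, the arrays by which they were chosen. When each comparison was fitted to its own 6 arrays alone, 65 of 131 SIZ1 minus COL calls were shared, 49.6%. These were 8.8% of the 738 SAB minus AB calls in that fit.

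**Figure D5:**
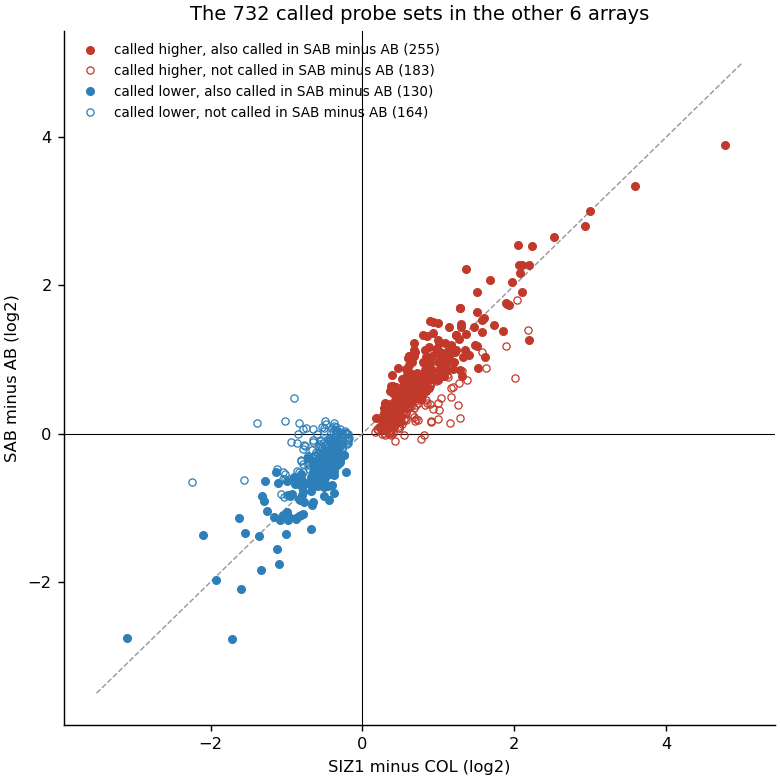
SAB minus AB (vertical axis, log2) against SIZ1 minus COL (horizontal axis, log2) for the 732 probe sets called in the latter. Filled points were called in both, and the dashed line marks equal change. Of the 438 rises 430 lie above 0 on the vertical axis, and of the 294 falls 268 lie below.

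The difference between these changes was tested directly. Of the 22746 probe sets, 0 were called as changing by a different amount in SIZ1 minus COL than in SAB minus AB (limma, lowest adjusted p = 0.0555), with 1218 at an unadjusted p under 0.05. With 3 arrays to a genotype, a difference that was not called is not shown to be absent. With the replicate block 12 were called, among them AT1G33790, which had a change 1.10 higher in SIZ1 minus COL than in SAB minus AB (limma adjusted p = 0.0230 with the block). Between SIZ1 and SAB themselves 0 probe sets were called, with 981 at an unadjusted p under 0.05 and a lowest adjusted p of 0.150. One of the lowest was the SUMO protease gene AT1G09730, 1.05 higher in SIZ1. Leaving out SAB 2 gave 5 calls, and leaving out SAB 3, SIZ1 1 or SIZ1 2 gave 2 each.

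Between SIZ1 and AB 1187 probe sets were called, 5.22%, of which 721 (3.17%) were higher and 466 (2.05%) lower in SIZ1. The count was 415 with only these 6 arrays. This contrast shares the SIZ1 arrays with the comparison to COL, so its values are given only side by side. M17, a late embryogenesis abundant gene, stood at 5.42, 7.13 and 5.40 in AB and at 2.59, 2.47 and 2.47 in SIZ1, a difference of -3.48, while COL stood at 2.59, 2.94 and 4.02. SIZ1 was far below AB for M17 and at the low end of COL, from which it differed by -0.67 without a call. AT3G16530 was 3.35 higher in SIZ1 than in AB, and THI2.2 2.90 lower. Counts of SIZ1 minus AB calls were 608, 565, 667 and 589 without AB 1, AB 2, SIZ1 1 and SIZ1 2.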

How the data were processed

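RNA of 12 seedling samples was measured on 1-colour Affymetrix ATH1 arrays. The authors deposited log2 expression values per probe set, made with GCRMA per the submitters' processing notes; its version was not given in the sources used here. The values ran from 2.02 to 13.21 and were used as they stand, without the 64 control probe sets. Symbols come from the platform table and RefSeq (TAIR10.1): 13513 probe sets name 1 gene, 503 several and 8730 none here. Roles, and lists made of locus codes, rest on general knowledge, because these tables hold no descriptions. A locus takes its brightest probe set. The planned family patterns for ribosomal proteins found no gene in these tables and were replaced by a list of loci.

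The values of all 12 arrays were modelled by genotype with limma 3.58.1 in R 4.3.3 (lmFit, eBayes, 8 residual and 1.31 prior degrees of freedom). Tests were two-sided, Benjamini-Hochberg adjusted over 22746 probe sets, and called under 0.05. A difference above 0 is higher in the first-named genotype. The fit was tested on simulated data. The number of arrays limits the precision.

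After subtraction of genotype means, the correlation was 0.102 to 0.451 in the 18 pairs of arrays with the same number. It was -0.476 to 0.0923 in the 36 others. Deviations from a genotype mean cancel within the genotype, so positive like-numbered pairs push the others down. The second range is therefore no separate evidence. On the first range the numbers in the titles were taken to pair the samples. This pairing was used for the pair differences and for the replicate block. The main fit leaves it out, so its standard errors, adjusted p-values and calls treat the arrays as unpaired.

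Named are the SIZ1 probe sets, the 14 largest called rises and falls that name 1 gene, do not overlap and are not below the median level in both genotypes, 2 unnamed rises and falls by the same conditions, up to 4 called members of each list or family with at least 5 measured loci, and up to 4 called genes of SIZ1 minus SAB and SIZ1 minus AB. Other genes were named after their values were seen. The members and lists were chosen with earlier results of these data known, and the ribosomal, plastid, SWEET and thionin lists were added after the values were seen. Promoter motifs were not analysed here.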

Additional observations from a re-analysis of the deposited data

How the results depend on the processing

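Alternatives were a replicate block, quantile normalization, median centring, a filter on dim probe sets, an intensity trend with robust prior, a fit to the compared arrays alone, and leaving out each array. The replicate block moved the falls from 294 to 560. With only the compared arrays, SIZ1 against COL had 91 rises and 40 falls and SIZ1 against AB 415 calls. With only probe sets above the median level, SIZ1 against SAB had 4 calls. Leaving out 1 array at a time gave 204 to 552 rises and 113 to 357 falls, 0 to 5 calls for SIZ1 against SAB, 565 to 1322 for SIZ1 against AB, and a share of 39.7% to 66.8% of SIZ1 against COL calls found again in SAB against AB. Of the 51 named probe sets called in SIZ1 against COL, 29 kept their call without any 1 array and 17 with only the compared arrays. The direction of these 51 could turn only with quantile normalization or median centring, and it held there. The other fits to all arrays do not alter the change. None of the 51 overlaps between SIZ1 and COL, so leaving out 1 array could not turn it either. The replicate block ended none of the calls of named genes and quantile normalization ended 5. The ribosomal list kept 12 to 51 higher members without 1 array, and the plastid list 2 to 8 lower, both with 0 in the other direction; these repeats were chosen after seeing the data. Signal near the floor of the array limits what could be called in the dimmest 25%.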
